A study of Macaca mulatta with 8 samples.

Results

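A group of 8 genes outside the classic cytokine families were examined in primary rhesus macaque microglia: LAD1, TNFAIP6, LGR4, ISLR, HK3, C1QTNF1, NCOA7 and A4GALT. They are 8 of the 35432 genes counted. The statistic behind their selection is not stated: they were picked for a large fall with the antagonist MRS2578 in these same libraries. The difference between the conditions is therefore described below and not tested, and no number given for it is independent evidence of a change. The study asked how signaling by P2RY6, a receptor for extracellular UDP, modulates microglial responses to ultrapure lipopolysaccharide (uLPS), an agonist of TLR4. Microglia were isolated from the subcortical white matter of 4 adult animals (males: R07110, R12016; females: R02046, R14143) and kept for 8 days in medium with serum and 10 ng/mL M-CSF according to the sample labels (the methods of the study give a higher M-CSF concentration). At day 7, cells of each donor received 10 µg/mL uLPS for 16 h, either alone or after 1 h with 5 µM of the P2RY6 antagonist MRS2578. Neither group had an unstimulated counterpart among these libraries, so what uLPS itself does to the 8 genes was not measured. MRS2578 was dissolved in DMSO, and the methods state that DMSO controls were part of all assays with it. The labels of the libraries with uLPS alone name no DMSO, so whether those cells received it is not documented there. Each donor gave 1 library per condition, hence 4 libraries per condition and 8 in all, with 9231109 to 32790348 reads counted per library.

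The group has no common pathway. TNFAIP6 (also called TSG6) and C1QTNF1 encode secreted proteins, the first of which binds hyaluronan and is made by stromal and myeloid cells under inflammatory cytokines. LAD1 encodes ladinin-1, a protein of the anchoring filaments that fasten epithelia to the basement membrane. LGR4 is a receptor for R-spondins and through them amplifies Wnt signaling, and ISLR is a leucine-rich repeat protein with an immunoglobulin domain, best known from mesenchymal stromal cells. HK3 is the hexokinase typical of myeloid cells, A4GALT makes the glycolipid globotriaosylceramide, and NCOA7 encodes a nuclear receptor coactivator that also carries a TLDc domain, found in proteins of oxidative stress defense and of the vacuolar proton pump.

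The conditions of donor R02046 are in doubt. The sample labels and a supplementary expression table of the study assign opposite conditions to its libraries. Each of the 8 columns of that table was proportional to the counts of 1 library, with a coefficient of variation of the ratio of at most 1.42e-06, against at least 0.361 for the next library. For 6 columns the condition was that of the label, and for the 2 columns of R02046 it was the opposite one. The labels and that table do not themselves say which assignment holds. Values of the 8 genes are given with the labels first, then with the R02046 libraries exchanged, which turns the sign of every difference in that donor, and then over R07110, R12016 and R14143 alone.

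Counts were converted to CPM, which scales every library to the same total, with edgeR's TMM factors, and log2 fold changes (uLPS with MRS2578 against uLPS alone, with their standard error, SE) come from edgeR's quasi-likelihood fit over 12131 genes with donor as a block. All 8 genes passed its filter on low counts. Over all genes, edgeR's quasi-likelihood test called 0 genes at an adjusted p of 0.05 with the labels, while 624 (5.14%) had an unadjusted p under 0.05 and DESeq2's Wald test called 1. With R02046 exchanged it called 75 (0.618%), of which 63 were lower and 12 higher, and 1995 (16.4%) passed unadjusted. Without R02046 it called 0 of 12295, with 1670 (13.6%) passing unadjusted.

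As a group, the 8 genes were lower with MRS2578 in 8 of 8 cases in R07110, R12016 and R14143, which 19.8% of all genes tested also were. In R02046 as labelled, 7 were higher and 1, NCOA7, was lower. This pattern of higher in R02046 and lower in the other 3 donors was shared by 13.2% of all genes. Hence 1 of the 8 was lower in all 4 donors with the labels (6.49% of all genes), and 7 of the 8 were with R02046 exchanged (13.2% of all genes). A fall with MRS2578 in these libraries is what the genes were picked for, so these shares are given as description only. The difference in log2 CPM had a median over the 8 genes of -1.16 for R07110, -2.13 for R12016, -1.19 for R14143 and 1.25 for R02046 as labelled. The median log2 fold change was -0.94 with the labels, -1.58 with R02046 exchanged and -1.56 without R02046, and over all genes these medians were -0.0097, 0.0012 and -0.0035. With the labels the difference was thus strong for some of these genes and small for others, HK3 in particular. The rule that picked the genes names no threshold, so there are no values just inside or outside it.

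**Figure D1:**
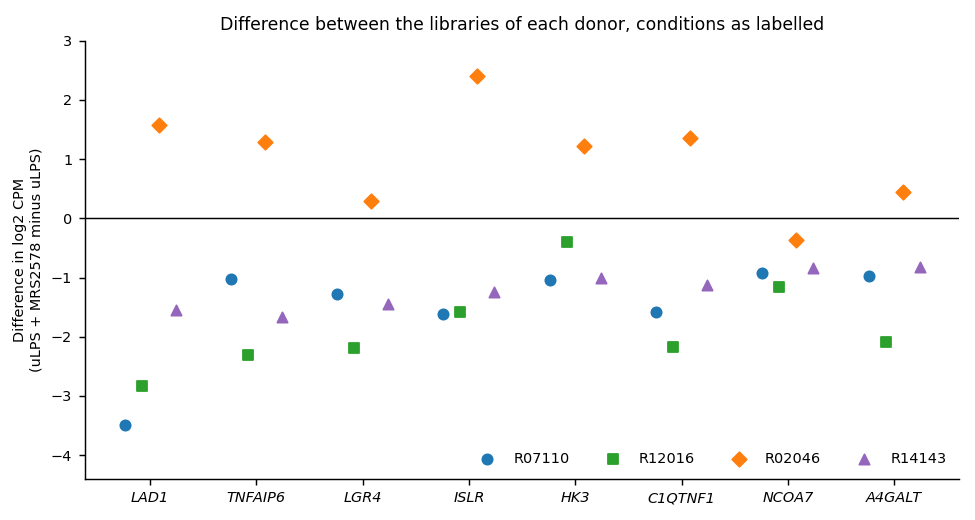
Difference in log2 CPM between the uLPS + MRS2578 and the uLPS library of each donor (y axis) for the 8 genes (x axis), with conditions as in the sample labels; each point is 1 donor and the line marks no difference. The points of R07110, R12016 and R14143 lie below 0 for all 8 genes, and those of R02046 lie above 0 for 7 genes, up to 2.40 for ISLR, and below it for NCOA7.

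The purity of the cultures bears on genes known from other cell types. Summed CPM of 10 microglia and macrophage markers lay between 3801 and 4826 in the 8 libraries, with CSF1R at 1005 to 1470 CPM, but P2RY12 was at 5.70 to 13.3 CPM and CX3CR1 at 0.0508 to 2.21 CPM, so these markers of resting microglia were low. The 10 fibroblast and mural cell markers summed to 144 to 1267 CPM with uLPS and 271 to 583 CPM with MRS2578, including COL1A1 at 41.3 to 511 CPM. Epithelial markers, of which 3 were in the files, summed to at most 0.609 CPM, lymphocyte markers to at most 0.442 CPM, and those of neutrophils and monocytes to at most 0.791 CPM. Endothelial markers summed to 178 to 332 CPM, astrocyte markers to 68.8 to 187 CPM and oligodendrocyte markers to 61.2 to 76.0 CPM. In such bulk RNA, fewer cells of a type and less RNA per cell cannot be told apart. For P2RY6 itself, the target of MRS2578, the mean was 72.1 ± 19.2 CPM under uLPS alone and 72.8 ± 28.3 CPM after MRS2578 (SD, n = 4), a log2 fold change of -0.028 (SE 0.13), which was -0.14 (SE 0.11) with R02046 exchanged and -0.11 (SE 0.13) without R02046.

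To compare the genes with each other, CPM were divided by the exon length in the RefSeq annotation of Mmul_10. This length is approximate, since the reads had been counted on Ensembl genes. The highest level with uLPS alone was that of C1QTNF1, at 38.3 ± 22.3 CPM per kb (SD, n = 4), followed by HK3 at 17.0 ± 10.8 and LAD1 at 16.1 ± 15.1 CPM per kb. TNFAIP6 was at 7.95 ± 5.86 CPM per kb, near the median of 8.18 over 10595 genes with a length. ISLR at 5.25 ± 5.75, A4GALT at 3.50 ± 1.96, LGR4 at 2.95 ± 3.23 and NCOA7 at 1.98 ± 1.24 CPM per kb lay below that median. C1QTNF1 thus exceeded 84.7% of genes and NCOA7 21.4%. The ranges of all neighbours in this order overlapped over the 4 donors.

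**Figure D2:**
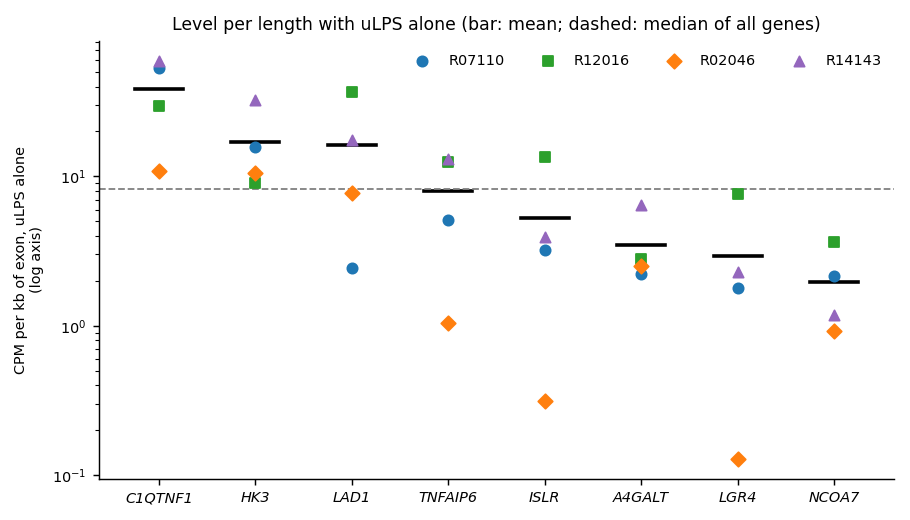
CPM per kb of exon with uLPS alone (log axis) for the 8 genes in order of their mean; points are the 4 donors as labelled, bars the means, and the dashed line the median of 8.18 over all genes with a length. C1QTNF1 stands highest with a mean of 38.3, and the points of R02046 are lowest for C1QTNF1, TNFAIP6, ISLR, LGR4 and NCOA7.

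TNFAIP6 (chromosome 12, 38531363 to 38552242, plus strand, Mmul_10) encodes the hyaluronan-binding protein that transfers heavy chains of inter-alpha-inhibitor onto hyaluronan. In cells with uLPS alone it was at 7.37 CPM (R07110), 17.9 (R12016), 1.49 (R02046) and 18.9 CPM (R14143). After MRS2578 it was at 3.56, 3.54, 3.80 and 5.87 CPM in the same order. The SD over donors was 8.40 CPM with uLPS and 1.12 CPM with MRS2578 as labelled, and 7.53 and 1.79 CPM with R02046 exchanged. Among the MRS2578 libraries R14143 stood above the other donors, and the conditions overlapped only through R02046. Its log2 fold change was -1.18 (SE 0.49), or 2.27-fold lower, and it was -1.63 (SE 0.23) with R02046 exchanged and -1.67 (SE 0.26) without R02046. Without R12016 it was -0.86. The R02046 libraries held 14 and 52 reads of TNFAIP6, a ratio of CPM of 2.55 with a 95% interval of 1.39 to 4.97, which covers counting error only, as do the other intervals given here.

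C1QTNF1 (chromosome 16, 75334918 to 75372228, plus strand) encodes a secreted protein related to complement C1q and TNF. It was measured at 221 CPM with uLPS (R07110), 124 (R12016), 45.7 (R02046) and 249 CPM (R14143). With the antagonist it was at 73.7, 27.4, 117 and 113 CPM. In the 3 donors whose labels are not in doubt the ratio of MRS2578 to uLPS lay between 0.220 and 0.455, and in R02046 as labelled it was 2.57. It was the 1 gene of the 8 whose conditions did not overlap once R02046 was exchanged (1.56% of all genes, lower with MRS2578), and with the labels there were 0 such genes of the 8 (0.412% of all genes). Over the 3 donors alone, TNFAIP6, LGR4 and C1QTNF1 did not overlap (5.51% of all genes). The log2 fold change of C1QTNF1 was -0.97 (SE 0.55) with the labels, -1.56 (SE 0.16) exchanged and -1.62 (SE 0.20) without R02046. It was -0.52 without R12016.

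LAD1 (chromosome 1, 58801946 to 58820386, minus strand) had the widest spread of differences among the donors, with an SD of 2.25 on the log2 scale. Levels with uLPS were 6.12 CPM (R07110), 92.6 (R12016), 19.6 (R02046) and 44.6 CPM (R14143). Those with MRS2578 were 0.445, 13.0, 58.6 and 15.2 CPM. R07110 was far below the other donors in both conditions, with 201 reads under uLPS and 11 with MRS2578, a ratio of 0.0727 (95% interval 0.0357 to 0.133). In R02046 as labelled the ratio was 2.98 (2.54 to 3.52). The conditions overlapped under either assignment and over the 3 donors. Its log2 fold change was -1.55 (SE 0.81), -2.18 (SE 0.30) with R02046 exchanged, where it was the most negative value of all 12131 genes, and -2.46 (SE 0.36) without R02046. Leaving out R12016 gave -0.81. The sum of the 3 epithelial markers in the files was at most 0.609 CPM, and the cell type behind the LAD1 reads was not tested.

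LGR4 (chromosome 14, 37978273 to 38086229, plus strand) was at 8.89 CPM with uLPS (R07110), 37.8 (R12016), 0.640 (R02046) and 11.4 CPM (R14143). The antagonist libraries held 3.60, 8.22, 0.805 and 4.08 CPM. R02046 stood far below the other donors in both conditions, with 6 and 11 reads, and its ratio of 1.26 had a 95% interval of 0.426 to 4.14. This interval includes 1, so the direction in this donor was not resolved at this depth. As labelled it lies above the ratios of R07110 (0.405), R12016 (0.217) and R14143 (0.359). LGR4 had a log2 fold change of -1.51 (SE 0.29), or 2.85-fold lower, -1.63 (SE 0.23) exchanged and -1.69 (SE 0.22) without R02046, so that LGR4 depended little on the assignment.

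ISLR (chromosome 7, 51179934 to 51183155, plus strand) ran from 0.854 CPM in R02046 to 37.0 CPM in R12016 under uLPS, with 8.74 in R07110 and 10.7 in R14143. MRS2578 libraries were at 2.79 CPM (R07110), 12.3 (R12016), 4.97 (R02046) and 4.47 CPM (R14143). R12016 was the highest donor in both conditions. The R02046 libraries held 8 and 68 reads, a ratio of 5.83 with a lower 95% bound of 2.79, opposite to the other donors, and the highest ratio of the 8 genes in that donor as labelled. Its log2 fold change was -0.92 (SE 0.56), -1.60 (SE 0.18) exchanged and -1.50 (SE 0.16) without R02046, and it was -0.59 without R07110. Fibroblast and mural cell markers, which ISLR is often found with, summed to 206 CPM with uLPS and 293 with MRS2578 in R07110, to 144 and 271 in R12016, to 428 and 583 in R02046 as labelled and to 1267 and 480 in R14143. The marker sum and ISLR differed in opposite directions in R07110 and R12016 and in the same direction in R14143 and in R02046, under either assignment of the latter. The part of these cells in the level of ISLR was not tested.

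HK3 (chromosome 6, 174341162 to 174361580, minus strand) catalyzes the first step of glucose use, the phosphorylation of glucose. It was at 106 CPM with uLPS (R07110), 60.6 (R12016), 70.1 (R02046) and 217 CPM (R14143), and at 51.5, 46.2, 163 and 108 CPM with MRS2578. The ratio of MRS2578 to uLPS was 0.487 in R07110 and 0.496 in R14143, nearer to 1 in R12016 at 0.761 (95% interval 0.690 to 0.839), and 2.33 in R02046 as labelled. With the labels HK3 had the smallest log2 fold change of the 8 genes, -0.34 (SE 0.37), and it ranked 863 from the largest fall among 12131 genes. It was -0.92 (SE 0.14) exchanged, -0.82 (SE 0.15) without R02046, -0.084 without R07110 and -0.092 without R14143. An exon of UNC5A overlaps HK3 on the opposite strand. UNC5A held 0 to 2 reads per library, and the strand setting of the counting is not given in the sources used here.

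A4GALT (chromosome 10, 8765390 to 8794096, plus strand) had 5.85 CPM with uLPS (R07110), 7.34 (R12016), 6.62 (R02046) and 16.8 CPM (R14143). Its values with MRS2578 were 2.91, 1.64, 9.07 and 9.39 CPM. R14143 was highest in both conditions, and R12016 showed the largest difference, with 115 and 26 reads. For R02046 as labelled the ratio was 1.37, with a 95% interval of 1.00 to 1.89. A4GALT had a log2 fold change of -0.83 (SE 0.37), -1.03 (SE 0.25) exchanged, -1.21 (SE 0.28) without R02046 and -0.51 without R12016.

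NCOA7 (chromosome 4, 29296997 to 29456294, plus strand) was the 1 gene that was lower in all 4 donors as labelled. Under uLPS it was at 20.2 CPM (R07110), 34.3 (R12016), 8.64 (R02046) and 11.1 CPM (R14143), against 10.6, 15.2, 6.66 and 6.15 CPM with MRS2578. R07110 and R12016 were above R02046 and R14143 in both conditions. The ratio in R02046 was 0.770, with a 95% interval of 0.564 to 1.05, so counting error alone covers no difference in this donor. For NCOA7 the log2 fold change was -0.85 (SE 0.16), -0.73 (SE 0.23) exchanged and -0.99 (SE 0.14) without R02046. NCOA7 was thus the 1 gene of the 8 whose difference was smaller with R02046 exchanged. RefSeq lists 11 transcript models with 10 start sites for it, among them a short one with the TLDc domain, and counts per gene cannot tell them apart.

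**Figure D3:**
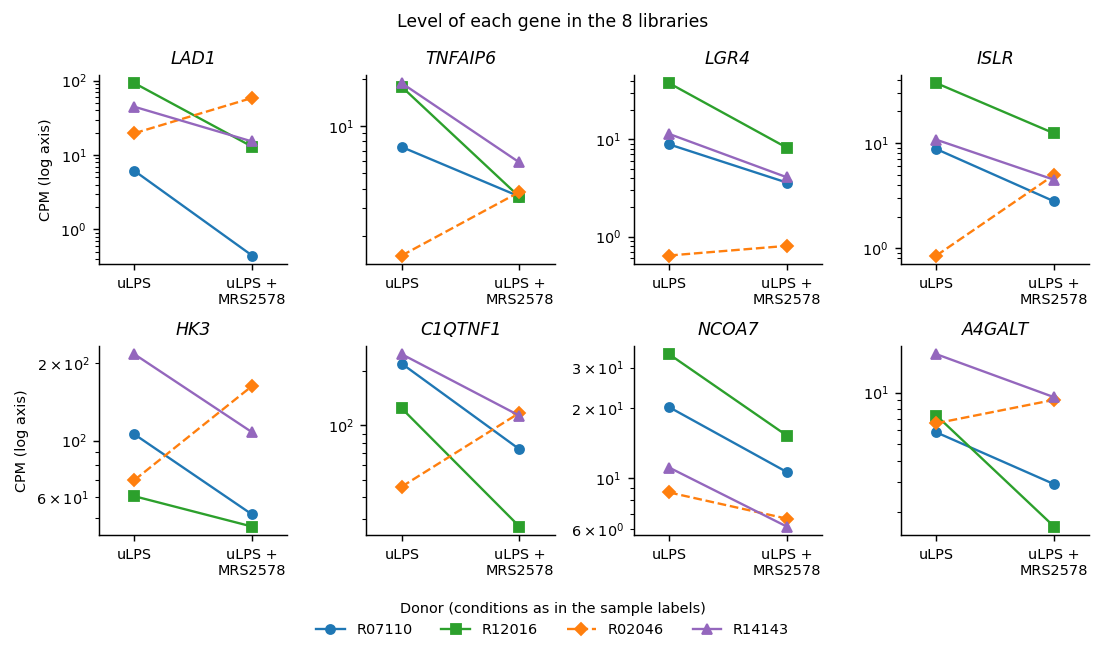
CPM (log axis, scaled separately for each gene) of the 8 genes with uLPS and with uLPS + MRS2578; each line joins the libraries of 1 donor as labelled, and the dashed line is R02046. All lines of R07110, R12016 and R14143 descend, while the dashed line rises for 7 genes and descends for NCOA7, from 8.64 to 6.66 CPM.

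**Figure D4:**
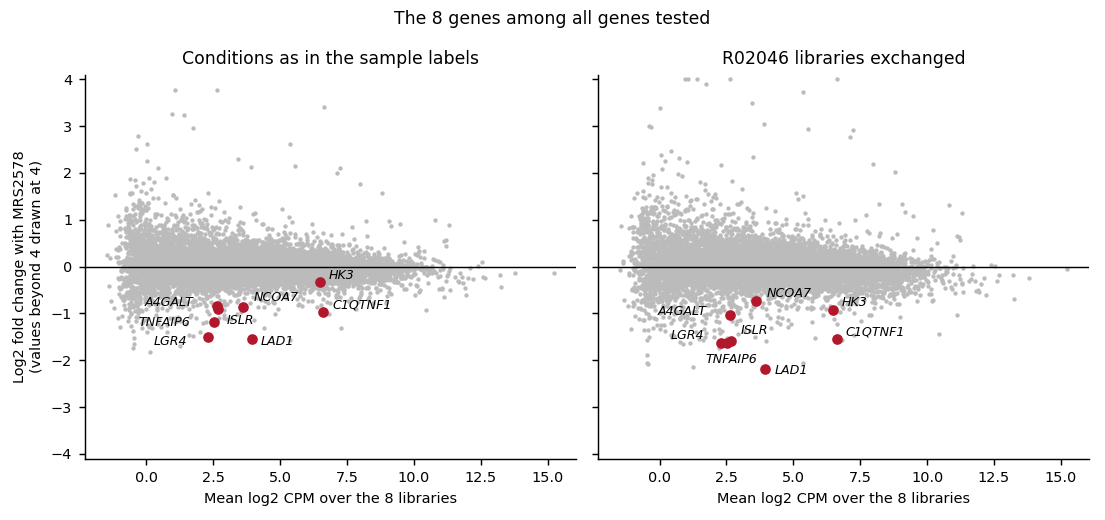
Log2 fold change with MRS2578 (y axis) against mean log2 CPM (x axis) for the 12131 genes tested, as labelled (left) and with the R02046 libraries exchanged (right); grey points are all genes and red points the 8 genes. The median of the 8 moves from -0.94 on the left to -1.58 on the right, where LAD1 is at -2.18.

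Differences between animals are another contrast than the one that chose the genes, although its residual spread includes the differences within donors described above. The mean log2 CPM of the donors spanned 4.43 for LGR4, 4.23 for LAD1 and 3.28 for ISLR, against a median span of 0.56 over all genes. TNFAIP6 spanned 2.09, A4GALT 1.81, NCOA7 1.58, HK3 1.53 and C1QTNF1 1.52. R12016 was highest for LAD1, LGR4, ISLR and NCOA7, and R14143 for TNFAIP6, HK3, C1QTNF1 and A4GALT. R02046 was lowest for TNFAIP6, LGR4, ISLR and NCOA7. With the labels, edgeR's quasi-likelihood test of the donor effect called 2 of the 8 genes, LGR4 (adjusted p = 0.0138) and NCOA7 (adjusted p = 0.0211), where 7.35% of all genes were called. For the other 6, adjusted p values by edgeR's quasi-likelihood test lay between 0.138 and 0.480. With R02046 exchanged all 8 were called, with 18.9% of all genes. Without R02046, LAD1, ISLR, HK3, C1QTNF1 and A4GALT were called too (edgeR adjusted p from 0.00784 to 0.0446), which makes 7 of the 8, where 7.39% of all genes were called. The donor test is scaled by the spread of the differences within donors, and the genes were picked on those differences. These counts are therefore not comparable with the shares of all genes and are description only. The NCOA7 call was lost without R12016 (edgeR adjusted p = 0.107) and without R14143 (edgeR adjusted p = 0.0601).

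Over the 8 libraries, which come from 4 animals and so are not independent, the 28 pairs of these genes had a median Pearson correlation of log2 CPM of 0.41. The highest was between LGR4 and ISLR (0.88), with HK3 and A4GALT at 0.85, TNFAIP6 and LGR4 at 0.83 and TNFAIP6 and ISLR at 0.82. The lowest was between HK3 and NCOA7 (-0.39). The genes therefore did not vary as one block, and the libraries behind these values differ by donor as well as by condition. As the genes were picked for a fall in these libraries, positive correlations among them are partly built in. Pairs of other genes were not compared, so the median is description only. Among 10572 genes, those with the pattern most like TNFAIP6 were LZTS3 (0.98), NFKBIA, the inhibitor of NF-κB (0.97), and DTX2 (0.97). PELI1, MXD1 and CALCRL were closest to LGR4 (all 0.98), and NCOR1 (0.99), ADD1 (0.98) and DENND5A (0.97) to ISLR. SNX6 (0.96), NDFIP2 and CYRIA (both 0.95) came first for LAD1. GRAMD2B (0.97), STAC3 and SEMA6B (both 0.95) led for HK3, and GPD2 (0.98), FAM124A and ARHGDIA (both 0.97) for C1QTNF1. For NCOA7 these were SIKE1 (0.98), PSMB10 and SLC52A1 (both 0.97), and for A4GALT they were SHISA5 and EPS15 (both 0.98) and SLC16A10 (0.97). With a prior count of 0.25 in the log2 CPM, 20 of these 24 genes were again among the closest 3, and NFKBIA, DTX2, DENND5A and FAM124A were not.

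The 250 bases upstream of the outermost annotated start of each gene were searched on both strands for motifs of factors that act in TLR and stress responses. AP-1 (TGANTCA) was found in the window of 1 of the 8 genes, TNFAIP6, and in 5.15% of 20782 windows of protein-coding genes. A κB motif was found in 1, ISLR, and in 4.93% of windows. The core of NFAT sites (GGAAAA) was present in 5, among them TNFAIP6, ISLR, LGR4 and A4GALT, and in 20.4% of windows. The interferon-stimulated response element, a pair of GAAA parted by NN, and CRE (TGACGTCA) were found in 0 of the 8 and in 3.03% and 1.47% of windows. A match of letters is a description and not a binding site. The windows of the 2 genes with an AP-1 or κB match are shown, together with that of LGR4, whose difference depended little on the assignment of R02046. Sequences run 5′ to 3′ on the strand of the gene, read from Mmul_10, and capitals mark the matches, which in the ISLR window are a GGAAAA match on the minus strand followed by overlapping κB matches on both strands. They lie at chr12:38531113-38531362 (plus strand) for TNFAIP6, chr7:51179684-51179933 (plus strand) for ISLR and chr14:37978023-37978272 (plus strand) for LGR4.
TNFAIP6: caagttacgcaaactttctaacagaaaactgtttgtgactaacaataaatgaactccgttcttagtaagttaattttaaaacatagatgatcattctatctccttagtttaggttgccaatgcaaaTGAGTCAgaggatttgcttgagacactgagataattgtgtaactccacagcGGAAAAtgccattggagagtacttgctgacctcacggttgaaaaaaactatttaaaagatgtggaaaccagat
ISLR: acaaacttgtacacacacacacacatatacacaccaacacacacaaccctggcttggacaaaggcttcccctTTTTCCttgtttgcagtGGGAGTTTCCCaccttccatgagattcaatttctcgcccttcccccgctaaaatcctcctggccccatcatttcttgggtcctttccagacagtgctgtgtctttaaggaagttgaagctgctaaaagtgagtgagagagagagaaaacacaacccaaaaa
LGR4: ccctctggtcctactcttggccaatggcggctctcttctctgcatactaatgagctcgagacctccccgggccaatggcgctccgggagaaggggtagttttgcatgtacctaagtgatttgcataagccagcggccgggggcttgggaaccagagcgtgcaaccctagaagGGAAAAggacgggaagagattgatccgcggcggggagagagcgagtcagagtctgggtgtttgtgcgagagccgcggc
In the TNFAIP6 window the AP-1 match TGAGTCA, which reads the same motif on both strands, lies 124 to 118 bases before the start and the GGAAAA match 73 to 68 bases before it. The κB match GGGAGTTTCC of ISLR lies 161 to 152 bases before the start, and it overlaps its match on the other strand. The windows differ in base composition, from 35.6% G and C in TNFAIP6 to 72.0% in A4GALT, against a median of 57.2% over all windows. No match was found for HK3, C1QTNF1 or NCOA7, nor before the start of the short NCOA7 model, which says only that these letters are not in these windows. The other annotated starts of C1QTNF1 (6 in all), NCOA7 (10), HK3 and A4GALT (3 each) and ISLR (2) were not searched.

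Genes related to each of the 8 by pathway or family were then read from the same fit. The 8 lists hold 133 genes, of which 79 were tested, and edgeR's quasi-likelihood test called 0 of them with the labels. At an unadjusted p under 0.05 there were 3 lower and 6 higher (11.4%, against 5.14% of all genes). With R02046 exchanged, edgeR called 1, EMILIN2, and 20 passed unadjusted (25.3%, against 16.4% of all genes). The median log2 fold change over the 79 was 0.0052 with the labels and -0.048 exchanged, against medians of -0.94 and -1.58 for the 8 genes themselves. As the 8 were picked for their fall, the distance between these medians carries no test.

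For these genes the log2 fold change with the labels is given first and that with R02046 exchanged second. Of 12 hyaluronan genes tested beside TNFAIP6, 0 were called under either assignment, and the median was 0.075 and then -0.061. CD44, the main hyaluronan receptor, averaged 5414 ± 1842 CPM under uLPS and 4376 ± 849 CPM after MRS2578 (SD, n = 4), with log2 fold changes of -0.27 (SE 0.29) and -0.61 (SE 0.14). STAB1, a scavenger receptor for hyaluronan, was at 0.30 (SE 0.16) and 0.37 (SE 0.12), and the matrix proteoglycan VCAN at 0.17 (SE 0.14) and -0.14 (SE 0.13). PTX3, a secreted pentraxin that binds TNFAIP6, was at -0.86 (SE 0.28) and -0.77 (SE 0.31), and CEMIP2, a cell surface hyaluronidase, at 0.67 (SE 0.19) and 0.67 (SE 0.18). PTX3 and CEMIP2 were the 2 of the list with an unadjusted p under 0.05 as labelled (16.7%, against 5.14% of all genes), 1 lower and 1 higher. With exchange CD44, STAB1, PTX3 and CEMIP2 were below it (33.3%, against 16.4% of all genes), 2 lower and 2 higher. Without R12016 PTX3 was at -0.47 as labelled.

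For C1QTNF1, 7 of the C1q family were tested, with a median of -0.29 as labelled and -0.53 with R02046 exchanged. C1QB, a chain of complement C1q, was at -0.38 (SE 0.20) and -0.56 (SE 0.11), and C1QC, another chain, at -0.24 (SE 0.13) and -0.22 (SE 0.12). EMILIN2, a matrix glycoprotein with a C1q domain, was at -0.39 (SE 0.31) as labelled and ran from -0.78 to -0.14 when single donors were left out. With R02046 exchanged EMILIN2 fell by 0.80 on the log2 scale (SE 0.12, edgeR's quasi-likelihood test, adjusted p = 0.0411).

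Hemidesmosome genes beside LAD1 had 8 tested and 0 called under either assignment, with medians of 0.20 and 0.17. PLEC, the cytoskeletal linker plectin, was at 0.28 (SE 0.12) and 0.14 (SE 0.13), DST, another linker, at 0.23 (SE 0.16) and -0.047 (SE 0.17), and the tetraspanin CD151 at 0.076 (SE 0.12) and 0.20 (SE 0.092). The integrin ITGA6 was at 0.92 (SE 0.85) and 0.99 (SE 0.74), a value that as labelled ran from 0.10 without R12016 to 1.87 without R14143. Among 12 R-spondin and Wnt receptor genes, 0 were called under either assignment and the medians were -0.058 and 0.040. LGR6, the other R-spondin receptor tested, was at -0.87 (SE 0.34) and -0.99 (SE 0.32), and at -0.49 without R12016. As labelled, LGR6 was lower in 2 donors, R12016 (-1.42 in log2 CPM) and R14143 (-1.15), and not in R07110 (0.048) or R02046 (0.11). Its level was low and uneven, at 4.59 ± 6.57 CPM under uLPS and 1.99 ± 2.22 CPM after MRS2578 (SD, n = 4). The co-receptor LRP6 was at 0.34 (SE 0.14) and 0.23 (SE 0.16), and the receptor FZD7 at 1.07 (SE 0.53) and 0.79 (SE 0.55), with 0.54 without R12016 and 1.70 without R14143. CTNNB1 was at -0.036 (SE 0.095) and -0.048 (SE 0.085), and AXIN1 at -0.068 (SE 0.11) and -0.043 (SE 0.10).

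Leucine-rich repeat and immunoglobulin domain genes beside ISLR had 7 tested and 0 called under either assignment, with medians of 0.11 and -0.067. LRRC4 was at 0.017 (SE 0.19) and -0.22 (SE 0.16), and LRIG3 at -0.53 (SE 0.19) and -0.56 (SE 0.18). LRIG2 was at 0.11 (SE 0.17) and -0.067 (SE 0.17), and LRRN2 at 0.82 (SE 0.23) and 0.65 (SE 0.26).

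Of 11 glucose entry genes tested beside HK3, 0 were called under either assignment, and the medians were -0.092 and -0.11. None passed an unadjusted p of 0.05 as labelled, while 4 of the 11 did with R02046 exchanged (36.4%, against 16.4% of all genes), all of them lower: HKDC1, SLC2A6, ADPGK and SLC2A3. Such a share was not particular to this list. With R02046 exchanged the other lists ran from 7.69% (glycolipid genes) to 42.9% (C1q family, and leucine-rich repeat and immunoglobulin domain genes). The hexokinase HKDC1 was at -0.35 (SE 0.35) and -0.87 (SE 0.15), and it ran from -0.82 without R02046 to -0.049 without R07110. Among the transporters, SLC2A6 was at -0.37 (SE 0.18) and -0.49 (SE 0.12), SLC2A3 at -0.20 (SE 0.16) and -0.29 (SE 0.12), and SLC2A5 at -0.092 (SE 0.14) and -0.0018 (SE 0.13). HK1, the hexokinase of most tissues, averaged 458 ± 30.0 CPM under uLPS and 465 ± 65.5 CPM after MRS2578 (SD, n = 4), with log2 fold changes of 0.011 (SE 0.10) and -0.073 (SE 0.088).

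Beside A4GALT, 13 glycolipid genes were tested and 0 called under either assignment, with medians of -0.021 and -0.018. UGCG, which makes the glucosylceramide that this pathway starts from, was at 0.24 (SE 0.086) and 0.11 (SE 0.11), and B3GALNT1, which extends the product of A4GALT to globoside, at -0.23 (SE 0.12) and -0.12 (SE 0.13). The lysosomal activator PSAP was at 0.093 (SE 0.20) and 0.011 (SE 0.15), and the lysosomal enzyme chain HEXA at -0.11 (SE 0.089) and -0.044 (SE 0.087). Of 9 TLDc and coactivator genes beside NCOA7, 0 were called under either assignment, with medians of 0.037 and -0.085. NCOA4 was at 0.019 (SE 0.099) and -0.044 (SE 0.087), NCOA3 at 0.078 (SE 0.11) and -0.059 (SE 0.10), TBC1D24 at -0.12 (SE 0.088) and -0.11 (SE 0.082), and MEAK7 at 0.45 (SE 0.15) and 0.18 (SE 0.20).

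**Figure D5:**
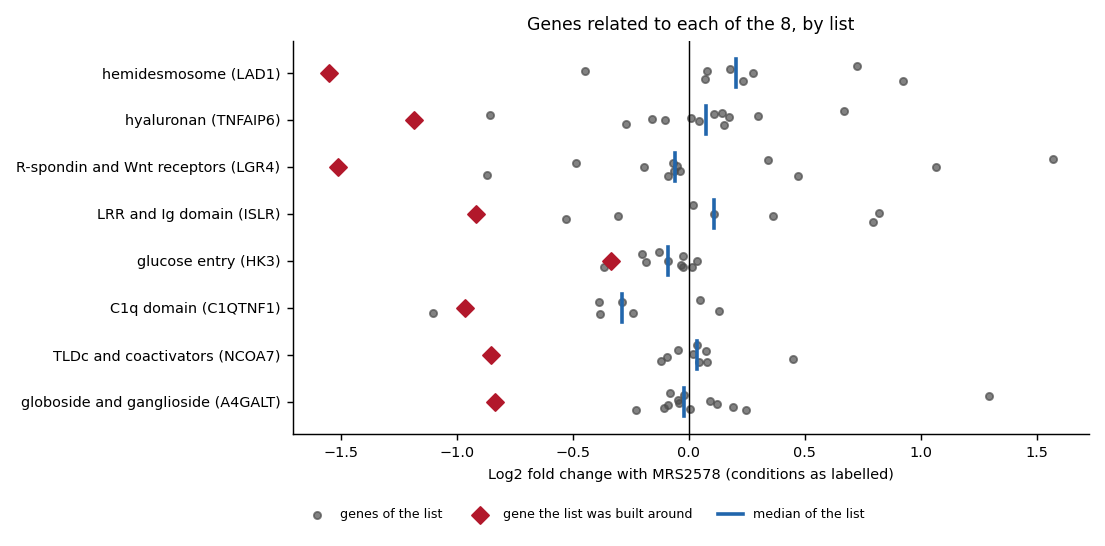
Log2 fold change with MRS2578 (x axis, conditions as labelled) of the tested genes of each list (grey points), their median (blue line) and the gene the list was built around (red diamond). The list medians lie between -0.29 and 0.20 and each of the 8 genes lies to the left of its own list's median, which follows from how the 8 were picked.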

How the data were processed

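RNA was measured in 8 libraries, 1 per donor and condition, made with a directional kit. The authors deposited whole-number read counts per Ensembl gene for 35432 genes, without normalization. The methods of the study name fastp, STAR, SAMtools and HTSeq on Mmul_10 with only unique exonic reads counted, whereas the submitters' processing notes name Trimmomatic (0.30), TopHat2 (2.0.14), SAMtools (1.3) and HTSeq (0.6.1p1). The strand setting and annotation release are not given in the sources used here. Reads mapping to several places were not counted, which lowers near-identical copies.

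The 8 genes, the gene lists and the alternatives were chosen with earlier results of these data known. Counts were analysed in R (4.3.3) with edgeR (4.0.16): filterByExpr on the condition (minimum count 10), TMM scaling, and the quasi-likelihood test, blocked by donor, with Benjamini-Hochberg adjusted p under 0.05 as the threshold. The block rests on the shared animal, and the 2 libraries of an animal deviated from their condition means with a correlation across genes of 0.602 (R07110), 0.552 (R12016), 0.458 (R02046) or 0.562 (R14143). Log2 CPM used a prior count of 2. Ratios within a donor have exact 95% intervals for counting error only, and 3 counts, the limit that a count of 0 allows, equal 0.0915 to 0.325 CPM. The lowest chi-square per degree of freedom between libraries was 20.6, so none was a duplicate. Each condition holds 1 library per animal, and the fit is blocked by donor. The p-values for MRS2578 thus set the mean difference within an animal against its variation among these animals. Those of the donor effect set the differences between animals against that same variation. Named beside the 8 genes were P2RY6, up to 3 genes of each list with the highest mean CPM and up to 2 with the largest fold change at a mean CPM of at least 1, and for each gene the 3 most correlated genes. A few items that this rule would name are not reported here. Positions and upstream windows come from the RefSeq annotation of Mmul_10. The scripts were tested on simulated data. Alternatives were DESeq2's (1.42.0) size factors and Wald test, no filter, no donor block, R02046 exchanged, each donor left out, and a prior count of 0.25. For the donor effect, DESeq2's likelihood-ratio test took the place of its Wald test. Added after seeing the data were edgeR's earlier quasi-likelihood estimation and R02046 exchanged with another donor left out.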

Additional observations from a re-analysis of the deposited data

Results flagged for a closer look

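Of 24 groups of 4 values examined for the 8 genes, 2 held a value far from the other 3, and about 1 in 20 groups would by chance. The level of TNFAIP6 in the uLPS + MRS2578 library of R14143 was 2.58 on the log2 CPM scale, above the other donors of that condition. The difference of ISLR in R02046 as labelled was 2.40 on the log2 scale, whereas it was -1.61, -1.57 and -1.24 in R07110, R12016 and R14143. The ISLR value rests on 8 and 68 reads and on the donor whose conditions are in doubt.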

How the results depend on the processing

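Every one of the 80 log2 fold changes of the 8 genes under the alternatives was below 0, from -2.46 to -0.084, and each moved by less than 1 SD of the donor differences. The genes were picked for a fall in these same libraries, so these signs are no independent evidence. That SD is also wide, as 7 of the 8 genes were higher in R02046 as labelled. For HK3 it was 1.06, while the log2 fold change ran from -0.92 to -0.084. Without the replicate block that pairs libraries by donor, the median of the 8 was -0.95, LAD1 was at -0.92 and 0 genes were called. With the block LAD1 was at -1.55 and 0 genes were called as well, so the calls say little about the block. A fit without the block was not run with R02046 exchanged. The count of genes called for MRS2578 was 1 by DESeq2's Wald test and 75 with R02046 exchanged, and in the exchanged assignment it was 0 without R07110, 5 without R12016 and 918 without R14143, so single donors decide it. Of the related genes, 1 was called with R02046 exchanged. The donor effect was called for 892 genes, for 2468 by DESeq2's likelihood-ratio test and for 2288 with R02046 exchanged. With 1 donor left out it was called for 333 to 909 genes (421 without R07110, 333 without R12016, 408 without R14143). Signs of related genes near 0 turned. With R02046 exchanged these were DST (-0.047), VCAN (-0.14), LRRC4 (-0.22), LRIG2 (-0.067), HK1 (-0.073), NCOA4 (-0.044) and NCOA3 (-0.059). With each donor left out in turn, CD151 ran from -0.010 to 0.185, CTNNB1 from -0.070 to 0.033, SLC2A5 from -0.257 to 0.010, NCOA4 from -0.018 to 0.082, LRRC4 from -0.13 to 0.217, HK1 from -0.042 to 0.074 and AXIN1 from -0.146 to 0.0036. The cause of these moves was not tested. With 6 and 11 reads of LGR4 in R02046, depth limits what that donor can show for this gene. The 24 most similar genes were 20 of the same with a prior count of 0.25.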
